A study of Mus musculus with 8 samples.

Results

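The histone deacetylases of classes I and II are the 10 genes Hdac1 to Hdac10, taken by gene name from a table of 34745 mouse genes. All 10 were among the 14690 genes tested after the filter on low counts. RNA-seq had been run on CD4+ T cells from the spleen of wild-type C57BL/6 mice, as 8 libraries in 4 groups of 2. Th17 cells (replicates 2 and 3) and Treg cells (replicates 2 and 3) had been kept for 3 days under Th17 or Treg differentiation conditions, Th0 cells (replicates 1 and 3) had received αCD3/CD28 stimulation for 3 days, and naive cells (replicates 1 and 2) were CD4+ T cells selected from the spleen without culture. All groups shared the wild-type genotype, strain and tissue. The labels give no age, sex or cytokines and do not tell whether a group's libraries stem from different animals. The p-values therefore measure only how far these libraries spread, which may be technical.

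Histone deacetylases remove acetyl groups from lysines of histones and other proteins, and deacetylated histones are typically linked to closed chromatin. Class I enzymes (Hdac1, Hdac2, Hdac3, Hdac8) are mostly nuclear, and the first 3 work inside multi-subunit corepressor complexes. Class IIa enzymes (Hdac4, Hdac5, Hdac7, Hdac9) have little catalytic activity of their own, bind MEF2 transcription factors and move out of the nucleus when kinases phosphorylate them and 14-3-3 proteins hold them. In T cells, Hdac7 is known for holding back antigen receptor target genes in thymocytes and Hdac9 for restraining regulatory T cell function. Class IIb enzymes (Hdac6, Hdac10) act largely outside the nucleus.

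Levels are given as CPM, the counts scaled to a common library size with TMM factors, in the order of the replicate numbers. Total counts ranged over the libraries between 12504463 and 22443368, so that a count of 0 would allow at most 0.134 to 0.24 CPM, taking 3 counts as the limit and covering counting error only. No member had a count of 0 in any library, and the lowest count was 28, for Hdac9 in a Treg library. A gene was called at an adjusted p under 0.05 in edgeR's quasi-likelihood test, with 1 fit over all 8 libraries. Foxp3, the lineage factor of regulatory T cells, averaged 7.92 CPM in Th17, 293 in Treg, 5.32 in Th0 and 98.2 in naive libraries. Il17f, a Th17 cytokine, averaged 112 CPM in Th17, 18 in Treg, 0.875 in Th0 and 0.484 in naive libraries. Il17a did not separate Th17 from Treg libraries, with 47.3 CPM in Th17 and 45.9 CPM in Treg libraries. The naive libraries also held RNA of other cells: the summed level of 18 myeloid and dendritic cell markers was 76.5 to 181 CPM in the cultured libraries and 4200 to 4490 CPM in naive ones. In bulk RNA, fewer cells of a type and less RNA per cell cannot be told apart.

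The family changed make-up between uncultured and cultured cells. Hdac4, Hdac6, Hdac7 and Hdac8 were called higher than in naive cells in all 3 cultures, and Hdac9 and Hdac10 lower in all 3. The Hdac4 call in Treg cells was lost under RLE scaling, upper-quartile scaling and DESeq2. In each single culture against naive cells, 27.6% to 31.3% of all genes were higher and 29% to 36.4% lower. Treg cultures differed from Th0 cultures in all 4 class IIa genes and the class I gene Hdac8, all lower in Treg. Hdac1, Hdac3 and Hdac6 were higher in Treg, and the Hdac1 and Hdac6 calls depended on the settings, as given below. In that comparison 25.7% of all genes were higher and 20.6% lower, so the count of 3 higher members was near the share. Th17 cultures differed from Th0 cultures in 3 called members, with Hdac9 and Hdac6 higher and Hdac5 lower. That count was near the share of all genes, of which 16.1% were higher and 12.6% lower.

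**Figure D1:**
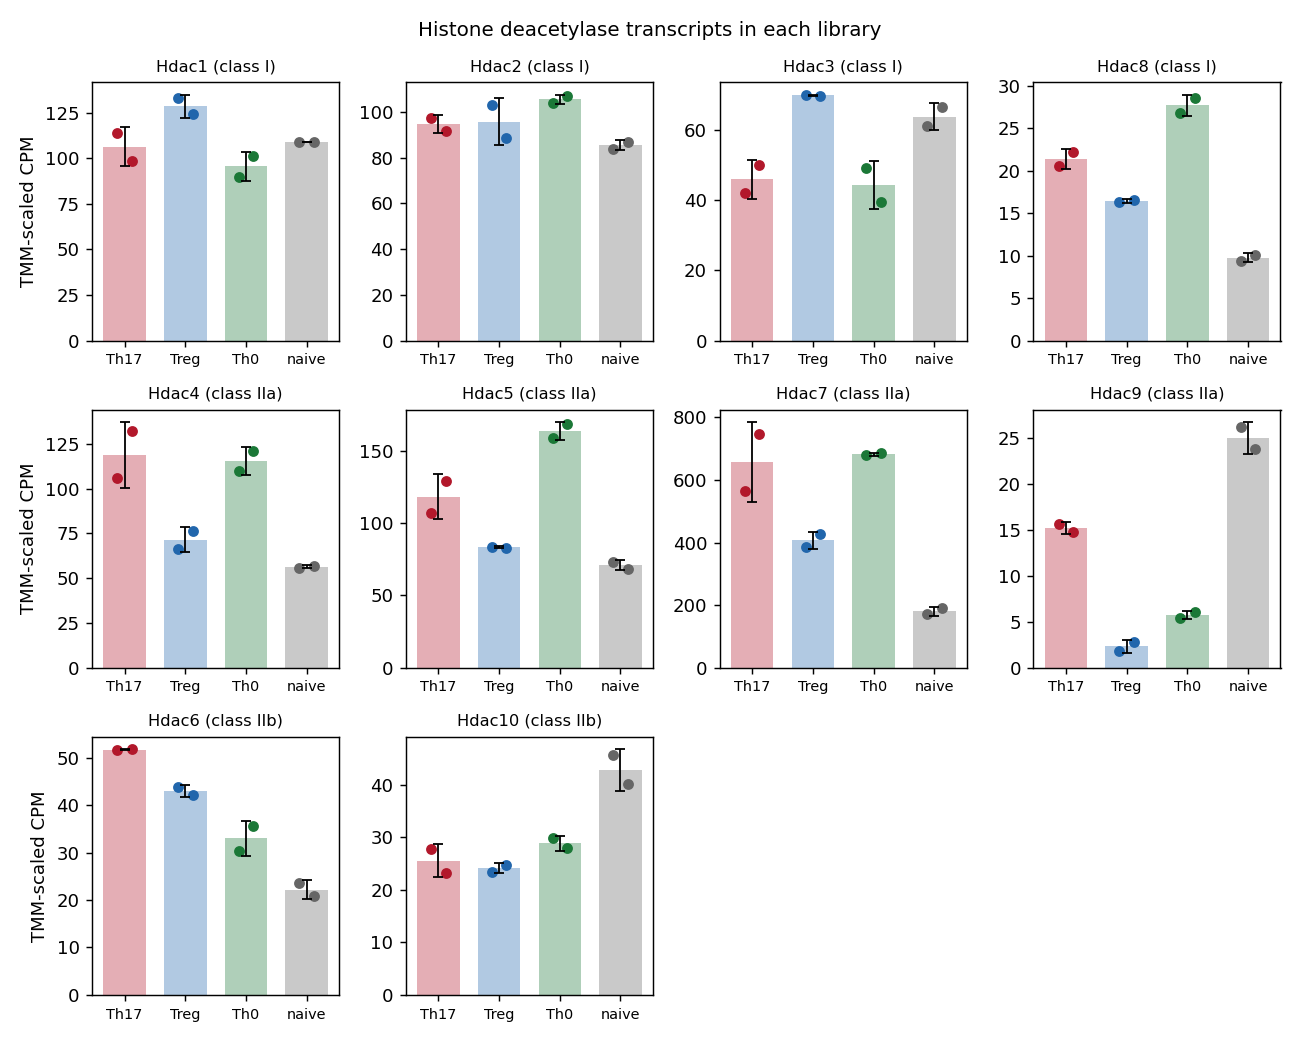
Level of each of the 10 genes in TMM-scaled CPM. Points are libraries, bars are means and error bars are SD of the 2 libraries of a group. Hdac7 stood at 387 CPM or more in all 6 cultured libraries against 170 and 190 CPM in naive ones, and Hdac9 was the member with the widest range.

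Hdac7 (ENSMUSG00000022475, class IIa, chromosome 15, positions 97792664 to 97844502 on GRCm38, minus strand) was the most abundant member by counts in every library. Its level was 566 and 748 CPM in Th17, 387 and 426 CPM in Treg, 678 and 685 CPM in Th0 and 170 and 190 CPM in naive libraries. Every cultured library was above both naive libraries, and both Treg libraries were below all Th17 and Th0 libraries. Hdac7 rose by a log2 fold change of 1.92 (SE 0.13, adjusted p = 1.77e-06, edgeR) in Th0 against naive cells, by 1.87 in Th17 (adjusted p = 2.48e-06) and by 1.18 in Treg cells (adjusted p = 5.52e-05). Treg cells were lower than Th0 cells by a log2 fold change of -0.75 (SE 0.13, adjusted p = 0.00152). Between Th17 and Th0 cells the log2 difference was -0.05, with a 95% confidence interval of -0.34 to 0.24 (adjusted p = 0.793), and the Th17 libraries spanned the Th0 pair. Without Th17 replicate 2 that difference was 0.14 (adjusted p = 0.384). Slc48a1, a heme transporter gene on the opposite strand, shares 29 exon bases with Hdac7, and the strandedness of the libraries is not given in the sources used here. Slc48a1 was also lower in Treg than in Th0 cells (log2 fold change -0.69, adjusted p = 0.000934), while its difference between Th0 and naive cells was 0.12 (adjusted p = 0.335). The part of shared reads in the Hdac7 values was not tested.

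Hdac4 (ENSMUSG00000026313, chromosome 1, positions 91928779 to 92180341 in the table, minus strand) and Hdac5 (ENSMUSG00000008855, chromosome 11, positions 102194432 to 102230166, minus strand) are class IIa relatives that carry calcium and cyclic AMP signals from the cytoplasm to MEF2-bound genes in muscle, bone and neurons. Hdac4 was at 106 and 132 CPM in Th17, 66.5 and 76.5 CPM in Treg, 110 and 121 CPM in Th0 and 55.8 and 57.0 CPM in naive libraries. The Th17 and Th0 libraries were the high ones, the Treg libraries lay between, and the naive libraries were lowest with no overlap. Hdac4 rose by a log2 fold change of 1.03 in Th0 against naive cells (SE 0.13, adjusted p = 7.53e-05) and by 1.08 in Th17 against naive cells (adjusted p = 7.06e-05). Its rise in Treg against naive cells, 0.34 (adjusted p = 0.0431), was close to the threshold. That call was lost under RLE scaling (0.28, adjusted p = 0.0938), upper-quartile scaling (adjusted p = 0.0518), DESeq2 (adjusted p = 0.109) and the filter at 5 CPM (adjusted p = 0.0535), and without Treg replicate 3 (0.25, adjusted p = 0.218), either naive library (adjusted p = 0.148 and 0.113) or either Th0 library (adjusted p = 0.0715 and 0.0703). Hdac4 was lower in Treg than in Th0 cells by a log2 fold change of -0.69 (SE 0.13, adjusted p = 0.00206). Between Th17 and Th0 cells it differed by 0.04 (95% confidence interval -0.24 to 0.33), and this turned to -0.11 without Th17 replicate 3 and to -0.05 without Th0 replicate 1. A lincRNA on the opposite strand, Gm26720, shares 3536 exon bases with Hdac4 and was listed with 0 counts in all 8 libraries.

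Hdac5 was at 107 and 129 CPM in Th17, 83.6 and 82.8 CPM in Treg, 159 and 168 CPM in Th0 and 73.3 and 68.3 CPM in naive libraries. Its groups did not overlap, with Th0 highest, then Th17, Treg and naive. Hdac5 rose in Th0 against naive cells by a log2 fold change of 1.20 (SE 0.11, adjusted p = 8.79e-06) and in Th17 against naive cells by 0.74 (adjusted p = 0.000253). In Treg against naive cells the difference was 0.23 (adjusted p = 0.0879), and it was called without either Th17 library (0.24 each, adjusted p = 0.0363 and 0.0366) and when only those groups were fitted (adjusted p = 0.04). Against Th0 cells Hdac5 fell by 0.97 on the log2 scale in Treg cells (SE 0.11, adjusted p = 0.000153). It also fell by 0.47 in Th17 cells (SE 0.11, adjusted p = 0.0106), a call lost without Th17 replicate 2 (-0.34, adjusted p = 0.0549) or Th0 replicate 3 (-0.44, adjusted p = 0.0572).

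Hdac9 (ENSMUSG00000004698, chromosome 12, minus strand) had the widest range of group means in the family on the log2 scale, 3.46. The table places it at positions 34371503 to 34528889, a shorter locus than positions 34047580 to 34917095 of the GENCODE annotation of GRCm38, so its counts cover only part of the annotated gene if the table's coordinates were those used for counting. Hdac9 was at 15.7 and 14.8 CPM in Th17, 1.83 and 2.84 CPM in Treg, 5.41 and 6.08 CPM in Th0 and 26.3 and 23.8 CPM in naive libraries. The 4 groups were separate, in the order naive, Th17, Th0 and Treg, and the Treg values rested on 28 and 37 counts. Hdac9 was lower than in naive cells in all 3 cultures, by a log2 fold change of -0.71 in Th17 (adjusted p = 0.00809), -3.43 in Treg (SE 0.22, adjusted p = 1.58e-06) and -2.13 in Th0 cells (SE 0.20, adjusted p = 1.37e-05). The Th17 call was lost without naive replicate 1 (-0.64, adjusted p = 0.0601). Against Th0 cells it rose by 1.41 in Th17 cells (SE 0.20, adjusted p = 0.00113) and fell by 1.31 in Treg cells (SE 0.24, adjusted p = 0.00193). Th17 cells exceeded Treg cells by 2.72 (SE 0.23, adjusted p = 6.21e-05), a 6.60-fold difference.

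B cell markers, taken as a sum, ran in the same order of groups as Hdac9. The summed level of 12 B cell markers was 626 and 691 CPM in Th17, 191 and 184 CPM in Treg, 244 and 257 CPM in Th0 and 1810 and 1470 CPM in naive libraries. Of these 12 markers, 10 were higher and 1 was lower in Th17 than in Th0 cells, where 16.1% and 12.6% of all genes were. In Treg against Th0 cells 1 was higher and 5 were lower, where 25.7% and 20.6% of all genes were. All 12 were lower in Th0 than in naive cells, where 36.4% of all genes were. None of the 12 was at 0 in both libraries of a group. Pax5, the B lineage factor, averaged 133 CPM in Th17, 13.3 in Treg, 25.0 in Th0 and 196 CPM in naive libraries. Not every marker followed Hdac9. Ms4a1 averaged 13.5 CPM in Th17, 12.3 in Treg, 15.0 in Th0 and 237 CPM in naive libraries. Fcer2a was lower in Th17 than in both Th0 and Treg cells, and Fcrla was higher in Treg than in Th0 cells. Hdac9 stood at 0.963% to 2.52% of the marker sum over the 8 libraries. Genes of like pattern were sought among 9054 genes with a mean of at least 10 CPM, leaving out symbols of predicted genes, clones and pseudogenes. Those whose centred log2 CPM over the 8 libraries lay nearest to that of Hdac9 were Ebf1, Blk and Pik3ap1. Their root mean square differences were 0.29, 0.31 and 0.33. Ebf1 and Blk belong to the B cell marker list. The part of B lineage RNA in the Hdac9 values was not tested.

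**Figure D2:**
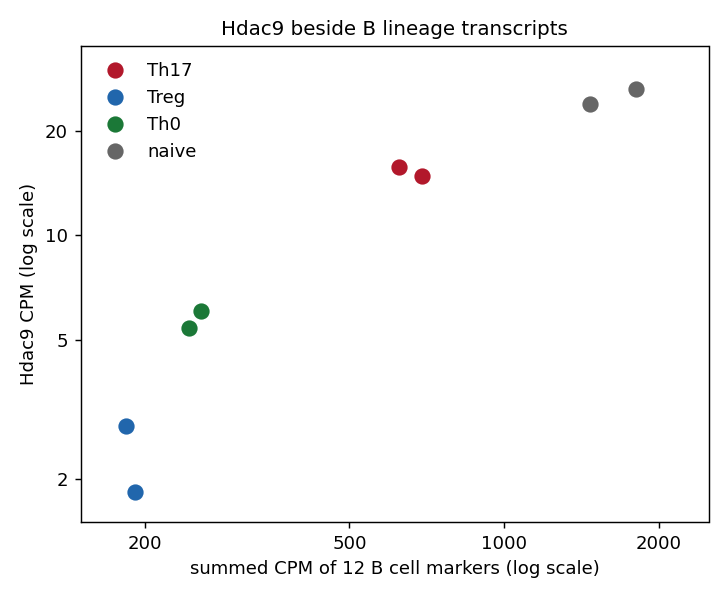
Hdac9 level against the summed level of 12 B cell markers, both in TMM-scaled CPM on log axes, with 1 point per library. The naive libraries lie at the upper right, the Th17 libraries next, and the Treg and Th0 libraries at the lower left, with Treg lowest in both measures.

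The promoter windows of the class IIa genes are shown because these genes fell together in Treg against Th0 cells while Hdac9 alone fell in Th0 against naive cells. Each runs from 250 bases before to 50 bases after a RefSeq transcript start on GRCm38.p6, is written in the direction of transcription from the minus strand, and has its CpG dinucleotides in capitals. Of the 10 members, 7 matched the RefSeq promoter table (Hdac2, Hdac4, Hdac5, Hdac6, Hdac7, Hdac8 and Hdac9). The window of Hdac4 is chr1:92180292-92180591, that of Hdac5 is chr11:102230123-102230422, and that of Hdac9 is chr12:34528840-34529139. For Hdac7 the first window, chr15:97844453-97844752, lies at the start of the deposited locus, and the second, chr15:97831718-97832017, at an inner start. The RefSeq table holds further inner Hdac7 windows, at chr15:97831446-97831745 and chr15:97814814-97815113, and a further Hdac9 window, chr12:34917046-34917345, at the start of the longer annotated locus, which are not printed.
Hdac4: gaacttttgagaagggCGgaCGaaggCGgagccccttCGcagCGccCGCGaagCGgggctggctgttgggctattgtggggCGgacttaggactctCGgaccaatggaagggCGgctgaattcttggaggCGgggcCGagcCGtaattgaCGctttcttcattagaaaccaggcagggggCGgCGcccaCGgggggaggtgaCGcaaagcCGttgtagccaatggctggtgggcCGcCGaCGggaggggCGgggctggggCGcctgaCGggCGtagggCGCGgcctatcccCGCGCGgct
Hdac5: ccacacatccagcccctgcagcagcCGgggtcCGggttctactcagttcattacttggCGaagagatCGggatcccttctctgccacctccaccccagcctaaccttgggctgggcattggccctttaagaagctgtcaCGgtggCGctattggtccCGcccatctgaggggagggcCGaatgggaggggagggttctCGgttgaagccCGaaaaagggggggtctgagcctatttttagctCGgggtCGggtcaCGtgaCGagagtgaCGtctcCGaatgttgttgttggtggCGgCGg
Hdac7 first start: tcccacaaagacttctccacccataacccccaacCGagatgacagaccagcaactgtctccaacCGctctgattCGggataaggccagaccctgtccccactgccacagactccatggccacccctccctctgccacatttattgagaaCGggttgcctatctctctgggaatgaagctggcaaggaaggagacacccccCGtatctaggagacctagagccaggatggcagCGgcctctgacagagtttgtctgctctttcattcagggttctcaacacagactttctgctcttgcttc
Hdac7 inner start: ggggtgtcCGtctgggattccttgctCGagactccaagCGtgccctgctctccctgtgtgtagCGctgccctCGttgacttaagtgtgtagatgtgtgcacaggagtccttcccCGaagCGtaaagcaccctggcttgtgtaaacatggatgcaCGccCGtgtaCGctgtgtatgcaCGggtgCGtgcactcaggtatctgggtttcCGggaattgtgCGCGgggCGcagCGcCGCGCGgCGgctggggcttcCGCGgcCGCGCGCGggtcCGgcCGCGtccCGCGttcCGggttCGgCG
Hdac9: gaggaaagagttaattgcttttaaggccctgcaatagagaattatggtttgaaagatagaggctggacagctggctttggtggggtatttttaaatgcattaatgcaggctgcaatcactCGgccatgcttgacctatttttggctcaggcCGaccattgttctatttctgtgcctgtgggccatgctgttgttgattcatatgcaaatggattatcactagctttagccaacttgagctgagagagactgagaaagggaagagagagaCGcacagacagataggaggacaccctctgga

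The Hdac4 window held 32 CpG and the Hdac5 window 18, against a median of 7 over 32851 promoters. At the first start, Hdac7 held 6 CpG, while the printed inner window held 35 and the inner windows not printed held 31 and 5. The printed Hdac9 window was CpG-poor, with 3, and the other Hdac9 window had 0. The GC box letters GGGCGG, searched on both strands, occurred 5 times in the Hdac4 window and 1 time in that of Hdac5, but not in the Hdac7 and Hdac9 windows printed here (1 time in the Hdac7 window from position 97831446), and 35.7% of all promoters held them. The MEF2 letters, CTA and TAG with any 4 bases between them, occurred once each in the Hdac5 and the printed Hdac9 windows and not in the other Hdac9 window, against 3.69% of promoters, and in the printed Hdac9 window the free positions included G and C. In the class IIa windows no GC box match overlapped a MEF2 match. Neither set of letters was particular to class IIa. The Hdac2 window held the MEF2 letters 1 time, and the Hdac6 window held the GC box letters 5 times. Letters of other factors were searched too, so the GC box and MEF2 are a choice from a longer list. The letters CCAAT occurred 2 times each in the Hdac4 and Hdac5 windows (37.4% of promoters). With N for any base, the printed inner Hdac7 window held the STAT letters TTCNNNGAA 2 times (8.3%). The printed Hdac9 window held the AP-1 letters TGANTCA 1 time (7.81%). Further matches are not listed here. The gene-level counts do not say which start was used.

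Among the class I enzymes, Hdac8 (ENSMUSG00000067567, chromosome X, positions 102284639 to 102505359, minus strand), which deacetylates the cohesin subunit Smc3, followed the order of Hdac7. It was at 20.6 and 22.2 CPM in Th17, 16.3 and 16.6 CPM in Treg, 26.8 and 28.6 CPM in Th0 and 9.35 and 10.1 CPM in naive libraries. The 4 groups were separate, with Th0 highest and naive lowest. Hdac8 rose by a log2 fold change of 1.5 in Th0 (SE 0.14, adjusted p = 1.04e-05), 1.13 in Th17 (adjusted p = 8.29e-05) and 0.75 in Treg cells (adjusted p = 0.00131), each against naive cells. Treg cells were lower than Th0 cells by -0.75 (SE 0.13, adjusted p = 0.00185). The Th17 libraries were also both below the Th0 libraries (-0.37), with an adjusted p of 0.0637 that passed the threshold under RLE scaling (-0.41, adjusted p = 0.0454) and limma-voom (adjusted p = 0.0461).

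Hdac1 (ENSMUSG00000028800, chromosome 4, positions 129516104 to 129542713, minus strand) and Hdac2 (ENSMUSG00000019777, chromosome 10, positions 36974544 to 37001889, plus strand) are the paired catalytic subunits of the NuRD, Sin3 and CoREST complexes, and both were the most even members across the groups. Hdac1 was at 114 and 98.7 CPM in Th17, 133 and 124 CPM in Treg, 89.9 and 101 CPM in Th0 and 109 CPM in both naive libraries. The Treg libraries were highest, and the Th17 libraries overlapped both Th0 and naive libraries. The single call was the rise in Treg against Th0 cells, by a log2 fold change of 0.43 (SE 0.10, adjusted p = 0.00848). It was lost without Th0 replicate 1 (0.30, adjusted p = 0.0949) or Treg replicate 2 (0.39, adjusted p = 0.0617). In Treg against naive cells Hdac1 differed by 0.24 (adjusted p = 0.0736), called without Th17 replicate 2 or 3 (adjusted p = 0.0444 and 0.0439) and with only those groups fitted (adjusted p = 0.0252). In Th17 against Treg cells it differed by -0.28 (adjusted p = 0.0751), called without Th17 replicate 2 (-0.39, adjusted p = 0.0335).

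The Hdac1 values carry a further uncertainty. A processed pseudogene, Gm10093, matched the Hdac1 transcript at 99.377% identity over 1444 bases and had counts of its own in every library, between 808 and 1955, so reads of the gene may be divided between both rows. Gm10093 was at 79.6 and 71.7 CPM in Th17, 100 and 106 CPM in Treg, 67.8 and 62.2 CPM in Th0 and 85.9 and 84.8 CPM in naive libraries. Summed with Hdac1, the level was 194 and 170 CPM in Th17, 233 and 231 CPM in Treg, 158 and 163 CPM in Th0 and 195 and 193 CPM in naive libraries. The sum kept the order Treg, naive, Th17, Th0 of the group means. In this sum, chosen after the data were seen, Treg exceeded Th0 cells by 0.53 (adjusted p = 0.00123) and naive cells by 0.26 (adjusted p = 0.0314). The sum was also lower in Th17 than in Treg cells by -0.35 (adjusted p = 0.0168) and in Th0 than in naive cells by -0.28 (adjusted p = 0.0189).

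Hdac2 was at 97.5 and 91.8 CPM in Th17, 103 and 88.7 CPM in Treg, 104 and 107 CPM in Th0 and 84.0 and 87.1 CPM in naive libraries. All cultured libraries were above both naive libraries, but only the Th0 difference was called, at a log2 fold change of 0.30 (SE 0.10, adjusted p = 0.023). That call was lost under upper-quartile scaling (0.24, adjusted p = 0.0541), without naive replicate 1 (0.27, adjusted p = 0.124), naive replicate 2 (0.32, adjusted p = 0.0773) or Th0 replicate 3 (0.28, adjusted p = 0.0802). The 95% confidence interval of the log2 difference was -0.08 to 0.37 in Th17 and -0.06 to 0.38 in Treg against naive cells. Between Th17 and Treg cells it was -0.24 to 0.21.

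Hdac3 (ENSMUSG00000024454, chromosome 18, positions 37935844 to 37954988, minus strand), the catalytic subunit of the NCoR and SMRT corepressors, had the same order of group means as Hdac1, over a wider range. It was at 41.9 and 49.9 CPM in Th17, 70.0 and 69.7 CPM in Treg, 49.2 and 39.5 CPM in Th0 and 61.1 and 66.5 CPM in naive libraries. Treg and naive libraries were high, and Th17 and Th0 libraries were low and overlapped each other. Hdac3 was higher in Treg than in Th0 cells by a log2 fold change of 0.65 (SE 0.13, adjusted p = 0.00382). It fell in Th17 against Treg cells by 0.61 on that scale (adjusted p = 0.00995), which missed the threshold without Treg replicate 2 (-0.60, adjusted p = 0.0578). Against naive cells it fell by 0.52 in Th0 cells (adjusted p = 0.00651) and by 0.48 in Th17 cells (adjusted p = 0.0115). The Th0 call was lost without Th0 replicate 3 (-0.37, adjusted p = 0.0586), and the Th17 call without Th17 replicate 2 (-0.36, adjusted p = 0.0728) or naive replicate 2 (-0.42, adjusted p = 0.0683). Between Th17 and Th0 cells the difference of 0.05 (95% confidence interval -0.26 to 0.35) turned to -0.11 without Th0 replicate 3 and to -0.07 without Th17 replicate 3.

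Hdac6 (ENSMUSG00000031161, class IIb, chromosome X, positions 7930120 to 7947889, minus strand), the cytoplasmic enzyme that deacetylates tubulin, was the only member with both Th17 libraries above all other libraries. It was at 51.6 and 51.8 CPM in Th17, 43.8 and 42.1 CPM in Treg, 30.4 and 35.6 CPM in Th0 and 23.6 and 20.8 CPM in naive libraries. The groups did not overlap. Against naive cells Hdac6 rose by a log2 fold change of 1.22 in Th17 (SE 0.12, adjusted p = 2.65e-05), 0.96 in Treg (adjusted p = 0.000156) and 0.57 in Th0 cells (adjusted p = 0.0027). Th17 cells exceeded Th0 cells by 0.65 (SE 0.12, adjusted p = 0.00473). Treg cells exceeded Th0 cells by 0.38 (adjusted p = 0.0305). The Treg call was lost under RLE scaling (adjusted p = 0.0596), DESeq2 (adjusted p = 0.116), no filter (adjusted p = 0.0687) and a fit of only those groups (adjusted p = 0.0572), and without Th0 replicate 1 (0.23, adjusted p = 0.254), Treg replicate 2 (0.36, adjusted p = 0.124) or Treg replicate 3 (0.43, adjusted p = 0.0682).

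Hdac10 (ENSMUSG00000062906, class IIb, chromosome 15, positions 89123307 to 89128700, minus strand), which deacetylates polyamines, was at 27.8 and 23.3 CPM in Th17, 23.5 and 24.8 CPM in Treg, 29.8 and 27.9 CPM in Th0 and 45.7 and 40.1 CPM in naive libraries. Every cultured library was below both naive libraries. It fell by 0.75 on the log2 scale in Th17 (adjusted p = 0.000982), 0.83 in Treg (adjusted p = 0.000623) and 0.57 in Th0 cells (SE 0.13, adjusted p = 0.0039), each against naive cells. Among the cultures no difference in Hdac10 was called, and the 95% confidence intervals were -0.48 to 0.13 for Th17 against Th0 and -0.56 to 0.05 for Treg against Th0.

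**Figure D3:**
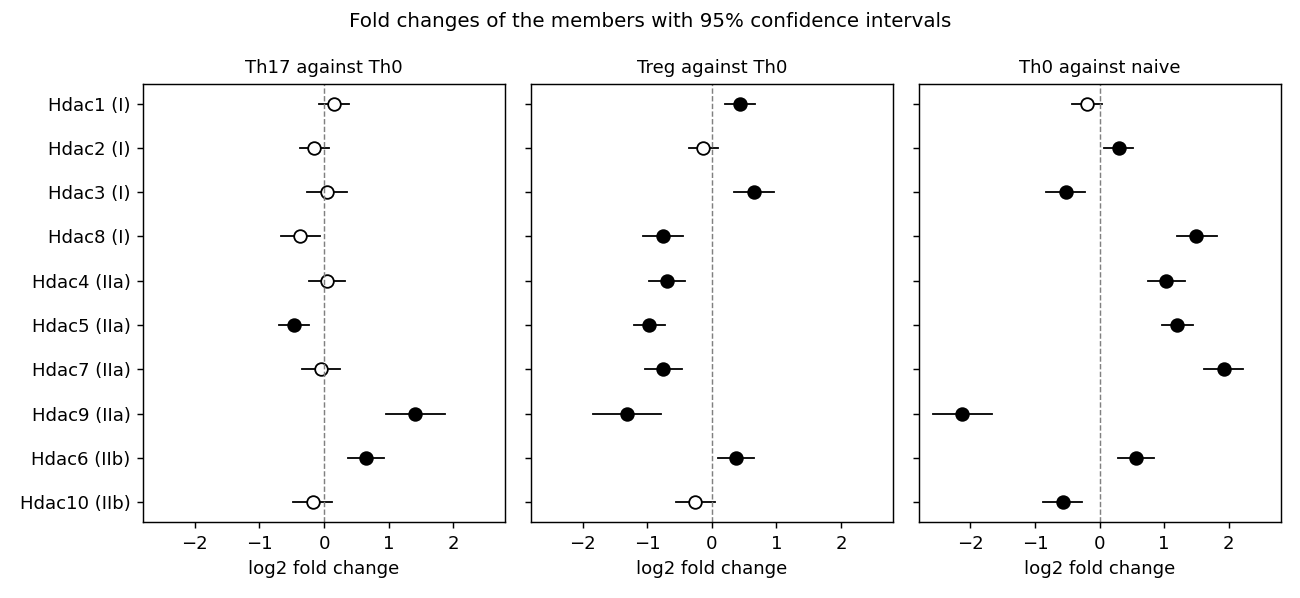
Log2 fold change of each member in Th17 against Th0, Treg against Th0 and Th0 against naive cells. Lines are 95% confidence intervals, filled circles are genes called at an adjusted p under 0.05 in edgeR and open circles are not called. In Treg against Th0 cells the 4 class IIa genes lie at -0.69 or below and the class I gene Hdac8 at -0.75, while Hdac1, Hdac3 and Hdac6 lie above 0.

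The number of called members was read against the share of all 14690 genes called in the same direction. In Th17 against Th0 cells 2 of 10 members were higher and 1 was lower, where 16.1% and 12.6% of all genes were. In Treg against Th0 cells 3 members were higher and 5 were lower, where 25.7% and 20.6% of all genes were. In Th17 against Treg cells 4 members were higher (the 4 class IIa genes) and 1 was lower (Hdac3), against 14.8% and 14.5% of all genes, and without Treg replicate 2 only 3 members were called. Against naive cells, 5 members were higher and 3 were lower in Th17 (30.4% and 32.8% of all genes), 4 and 2 in Treg (27.6% and 29%), and 6 and 3 in Th0 cells (31.3% and 36.4%). Counts of 1 to 3 members of 10 in a direction were near these shares. The median log2 fold change of the 4 class IIa genes was -0.86 in Treg against Th0 cells, where that of all genes was 0.09, and 0.71 in Th17 against Treg cells, where that of all genes was -0.03. Comparisons with Th0 cells share the Th0 libraries and those with naive cells share the naive libraries, so they are not independent of each other. Markers of other cells moved with every comparison against naive cells. All 18 myeloid markers were lower in each culture, and B cell markers were lower in 8 of 12 in Th17 and all 12 in Treg and Th0 cells. Erythroid markers (7 genes) summed to 350 and 268 CPM in naive and 0.682 to 4.26 CPM in cultured libraries. NK cell markers summed to 193 and 169 CPM in naive and 25.4 to 81.7 CPM in cultured libraries, with 4 lower and 1 higher in Treg against naive cells. Markers of T, myeloid and NK cells also moved between cultures. The summed level of 18 T cell markers was 4810 and 4930 CPM in Th17 and 5960 and 6060 CPM in Treg libraries. In Th0 libraries it was 6870 and 6500 CPM. Against Th0 cells, 0 of these 18 were higher and 10 lower in Th17, and 5 were higher and 7 lower in Treg cells. In Th17 against Treg cells 0 of them were higher and 11 lower. The myeloid sum was 166 and 181 CPM in Th17, 155 and 133 CPM in Treg and 82.1 and 76.5 CPM in Th0 libraries. Against Th0 cells 11 of the 18 myeloid markers were higher and 0 lower in Th17, and 14 were higher and 1 lower in Treg cells. C1qb, Clec9a and Csf3r were at 0 in both Th0 libraries, and Siglech in both Th17 and both Treg libraries. The summed level of 7 NK cell markers was 81.7 and 73.0 CPM in Treg and 25.4 and 25.6 CPM in Th0 libraries, with 3 higher, 1 lower and Ncr1 at 0 in both Th0 libraries. The part of these markers in the members' differences was not tested. The summed level of 18 proliferation genes was 5720 to 7840 CPM in the cultured and 1370 CPM in both naive libraries, and that of CD8 T cell markers (Cd8a, Cd8b1) was 426 and 469 CPM in Treg against 176 CPM in both Th0 libraries, likewise not tested.

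To compare members with each other, CPM was divided by the kilobases of merged exon inside each deposited locus. On this per-length scale Hdac7 led in all 6 cultured libraries, at 57.2 to 111 CPM per kilobase, and Hdac1 led in both naive libraries, at 31.7 and 31.6. Class IIa made up 54.8% and 62.4% of the family's summed level in Th17, 42.4% and 46.0% in Treg, 60.9% and 60.8% in Th0 and 32.4% and 33.5% in naive libraries. Its share was thus high in Th17 and Th0 libraries, lower in Treg and lowest in naive libraries, with no overlap between those levels. Most of this share was Hdac7, which alone averaged 47.2% of the family's level in Th17 and 35.6% in Treg libraries. In Th0 and naive libraries Hdac7 averaged 48.0% and 20.9%. Within class IIa, Hdac7 averaged 80.6% in Th17, 80.6% in Treg, 79.0% in Th0 and 63.6% in naive libraries. Class I made up 36.3% and 30.3% in Th17, 49% and 45.3% in Treg, 32.3% and 32.4% in Th0 and 53.7% and 54.4% in naive libraries. The summed level of the family was 192 and 218 CPM per kilobase in Th17, 168 and 169 in Treg, 207 and 212 in Th0 and 126 and 128 in naive libraries. Hdac9 was the lowest member in every cultured library, with 0.151% to 1.13% of the family's level, and held 2.88% and 2.57% in naive libraries, where Hdac8 was lowest.

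These shares depend on the length used and on the Hdac1 pseudogene. With Gm10093 added to Hdac1, the class IIa share averaged 53.0% in Th17, 37.5% in Treg, 55.9% in Th0 and 27.6% in naive libraries, and Hdac1 instead of Hdac7 was the highest member in both Treg libraries. With the deposited FPKM the share averaged 55.3%, 40.6%, 56.7% and 33.6% in the same group order. The order of Treg between Th0 and naive libraries was kept under both. Hdac9 also depended on the length used. With the deposited FPKM it held 0.412% to 3.09% of the family's level in the cultured and 7.45% and 6.68% in the naive libraries. The length behind its FPKM was 4422 bases, shorter than its 7240 bases of merged exon, so the merged exon scale gave Hdac9 the lower share.

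**Figure D4:**
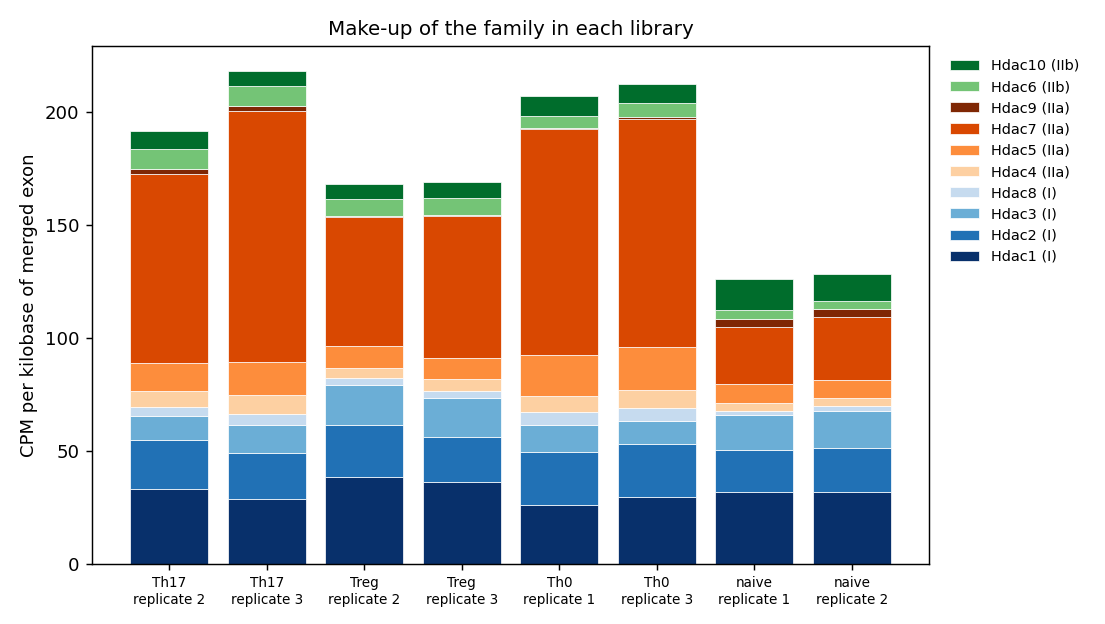
Summed level of the 10 genes in each library, in CPM per kilobase of merged exon, stacked by gene and grouped by class. The Hdac7 segment is the largest in all 6 cultured libraries, and in naive libraries it is smaller than that of Hdac1.

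Within the set of genes used for Hdac9, those that moved most like Hdac7 over the 8 libraries were Mxi1, Fcho1 and Zc4h2. Their root mean square differences of centred log2 CPM were 0.09, 0.10 and 0.12. Mxi1, a Max-binding antagonist of Myc, averaged 121 CPM in Th17, 66.8 in Treg, 121 in Th0 and 33.2 in naive libraries. For Hdac8 the nearest genes were Eef2, Ppip5k1 and Plin3, at 0.04, 0.06 and 0.06. Eef2, the translation elongation factor, averaged 7370 CPM in Th17, 6030 in Treg, 9880 in Th0 and 3500 in naive libraries.

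The partners of the class I enzymes were examined as lists chosen by role, and the counts are of called genes. Of all genes, 16.1% were higher and 12.6% lower in Th17 against Th0 cells (median log2 fold change 0.05), 25.7% and 20.6% in Treg against Th0 cells (0.09) and 31.3% and 36.4% in Th0 against naive cells (-0.08), and each count is to be read against these shares. Of 10 CoREST genes, 5 were higher and 0 lower in Th0 against naive cells at a median log2 fold change of 0.21. In Treg against Th0 cells 0 CoREST genes were higher and 6 lower (median -0.38, all genes 0.09). Zmym3 was at 70.7 and 76.7 CPM in Treg against 122 and 130 CPM in Th0 libraries (log2 fold change -0.77, adjusted p = 0.000868). Kdm1a, the histone demethylase of the complex, was at 96.0 and 96.4 CPM in Th17 against 125 and 129 CPM in Th0 libraries (-0.40, adjusted p = 0.00698), where 1 CoREST gene was higher and 2 were lower. Of 6 NCoR and SMRT genes, 4 were higher and 1 lower in Th0 against naive cells, and 1 was higher and 4 lower in Treg against Th0 cells (median -0.46). Ncor1, the corepressor that activates Hdac3, was at 483 and 505 CPM in Treg against 775 and 845 CPM in Th0 libraries (-0.71, adjusted p = 0.000784). Hdac3 itself was higher in that comparison. In Th17 against Th0 cells the median of the 6 was -0.23, and edgeR called none of them.

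The counts of NuRD and Sin3 genes were mostly near the shares of all genes. Of 13 NuRD genes, 6 were higher and 2 lower in Th0 against naive cells (median 0.11), 4 were higher and 2 lower in Treg against Th0 cells (median 0.07), and 0 were higher and 1 lower in Th17 against Th0 cells (median -0.16). The remodeller Chd3 was the gene that fell in Th17, at 230 and 244 CPM against 363 and 370 CPM in Th0 libraries (-0.63, adjusted p = 0.000431). In Treg libraries Chd3 was higher, at 498 and 503 CPM (0.45 against Th0, adjusted p = 0.00129). Mta1, another NuRD subunit, was at 235 and 230 CPM in Th0 against 93.1 and 93.6 CPM in naive libraries (1.31, adjusted p = 8.69e-06). Of 14 Sin3 genes, 4 were higher and 5 lower in Th0 against naive, 4 were higher and 5 lower in Treg against Th0, and 2 were higher and 2 lower in Th17 against Th0 cells. Brms1l was higher than in Th0 cells both in Th17 (0.79, adjusted p = 0.00163) and in Treg cells (1.08, adjusted p = 0.000167). Elmsan1, the scaffold of the mitotic deacetylase complex, was at 102 and 120 CPM in Th17, 109 and 108 CPM in Treg and 208 and 198 CPM in Th0 libraries, with a log2 fold change against Th0 cells of -0.87 in Th17 (adjusted p = 0.000448) and -0.90 in Treg cells (adjusted p = 0.000207).

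The partners of the class IIa enzymes were read against the same shares. Of 7 genes for 14-3-3 proteins, which hold phosphorylated class IIa enzymes in the cytoplasm, 6 were higher and 0 lower in Treg against Th0 cells (median 0.43, all genes 0.09), 3 were higher and 0 lower in Th17 against Th0 cells (median 0.24, all genes 0.05), and 1 was higher and 4 lower in Th0 against naive cells (median -0.48). Ywhah was at 247 and 224 CPM in Th17, 353 and 328 CPM in Treg, 106 and 97.1 CPM in Th0 and 213 and 198 CPM in naive libraries. It rose against Th0 cells by 1.21 in Th17 (adjusted p = 4.76e-05) and 1.74 in Treg cells (adjusted p = 9.99e-06). Ywhab rose by 1.63 in Treg against Th0 cells (adjusted p = 8.76e-05). Of 12 tested kinases known to phosphorylate class IIa enzymes, out of 13 listed, 4 were higher and 5 lower in Th0 against naive, 4 were higher and 6 lower in Treg against Th0, and 2 were higher and 4 lower in Th17 against Th0 cells. The salt-inducible kinase Sik1 was at 59.2 and 72.9 CPM in Th17, 41.5 and 46.8 CPM in Treg, 95.5 and 93.5 CPM in Th0 and 346 and 339 CPM in naive libraries. It was lower than in Th0 cells by -0.52 in Th17 (adjusted p = 0.00915) and -1.10 in Treg cells (adjusted p = 0.000125), and lower in Th0 than in naive cells by -1.86 (adjusted p = 8.37e-07).

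MEF2 transcription factors, the DNA-binding partners of class IIa enzymes, changed unequally. Of 4 MEF2 genes, 1 was higher (Mef2c) and 1 lower (Mef2d) in Th17 against Th0 cells. In Treg against Th0 cells 0 were higher and 2 lower (Mef2b and Mef2d), and in Th0 against naive cells 1 was higher and 1 lower. Mef2d, at 150 and 187 CPM in Th17, 179 CPM in both Treg and 203 and 265 CPM in Th0 libraries, was lower than in Th0 cells by -0.47 in Th17 (adjusted p = 0.0335) and -0.39 in Treg cells (adjusted p = 0.0476). Mef2c, which B and myeloid cells also express, was at 5.08 and 5.70 CPM in Th0 against 26.9 and 32.3 CPM in naive libraries (-2.46, adjusted p = 1.25e-05). Mef2b was at 10.8 and 10.4 CPM in Th0 against 1.20 and 1.21 CPM in naive libraries (3.13, SE 0.52, adjusted p = 0.000565). In Treg libraries Mef2b was at 0.655 and 3.6 CPM (-2.35 against Th0 cells, SE 0.52, adjusted p = 0.00524, edgeR).

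Of 13 acetyltransferases, the enzymes that add the mark, 0 were higher and 5 lower in Th17 against Th0 cells (median -0.21, all genes 0.05). In that comparison 16.1% of all genes were higher and 12.6% lower. In Treg against Th0 cells 1 was higher and 6 lower (median -0.32, all genes 0.09), where 25.7% and 20.6% of all genes were. In Th0 against naive cells 3 were higher and 5 lower, near the shares of all genes. Crebbp was at 93.3 and 121 CPM in Th17, 93.0 and 87.5 CPM in Treg and 143 and 153 CPM in Th0 libraries, with a log2 fold change against Th0 cells of -0.47 in Th17 (adjusted p = 0.0199) and -0.71 in Treg cells (adjusted p = 0.00149).

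The other 8 deacetylases, class IV Hdac11 and the 7 sirtuins, served as a comparison. In Th17 against Th0 cells 3 were higher and 0 lower, where 16.1% and 12.6% of all genes were. In Treg against Th0 cells 4 were higher and 2 lower, where 25.7% and 20.6% of all genes were. In Th0 against naive cells 2 were higher and 2 lower, where 31.3% and 36.4% of all genes were. The mitochondrial Sirt3 was at 12.3 and 14.3 CPM in Th17, 8.84 and 8.89 CPM in Treg, 18.6 and 15.4 CPM in Th0 and 5.64 and 5.55 CPM in naive libraries, the same order of groups as Hdac7 and Hdac8. Sirt3 rose by 1.60 in Th0 against naive cells (adjusted p = 4.37e-05) and fell by 0.94 in Treg against Th0 cells (adjusted p = 0.00255). The nucleolar Sirt7 ran the other way, at 56.5 and 52.9 CPM in Th17, 76.4 and 70.7 CPM in Treg, 40.9 and 46.0 CPM in Th0 and 99.4 and 103 CPM in naive libraries. Sirt7 was lower in Th0 than in naive cells by -1.22 (adjusted p = 6.58e-06) and higher in Treg than in Th0 cells by 0.76 (adjusted p = 0.000447). Hdac11 was low, at 5.82 and 5 CPM in Th17, 1.18 and 4.14 CPM in Treg, 8.32 and 6.31 CPM in Th0 and 3.37 and 4.99 CPM in naive libraries, and fell by 1.49 in Treg against Th0 cells (SE 0.48, adjusted p = 0.0295).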

How the data were processed

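Libraries from TRIzol-extracted total RNA were read on an Illumina HiSeq platform, per the labels' protocols. Tools and builds in the submitters' processing notes are RSEM, Bowtie2, mm10 and GRCm38.p6; their roles, their versions and the strandedness are not given in the sources used here. Each gene of the deposited table has a count and an FPKM in every library, per the file headers. The deposited counts are whole; no source says whether they were rounded. FPKM as deposited equals count over library total over 1 length per gene, for 100.0% of 134607 values above 0 within a relative tolerance of 0.001. That length equals the sum of all distinct exons, overlapping ones counted repeatedly (within 1 base), for 6 of the 10 members and 70.6% of 20786 genes, so merged exon length was used to compare levels between genes.

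The test used edgeR 4.0.16 (R 4.3.3) on the counts: filterByExpr by group, TMM scaling, 1 fit of 4 group means over 8 libraries (4 residual degrees of freedom, common biological coefficient of variation 0.13), glmQLFTest, and Benjamini-Hochberg adjustment over 14690 genes per comparison. SE is the log2 fold change over the root of its F statistic. Alternatives were DESeq2 1.42.0, voom in limma 3.58.1, scaling by upper quartiles or RLE, no filter, a minimum of 5 CPM in 2 libraries, fitting only the pair of groups compared, the replicate block and leaving out each library. The libraries of a pair were not copies of each other (chi-square per degree of freedom 8.77 to 17.4). Members of all lists are named by role; up to 3 called genes per list and comparison are named, by size of change, from those with at least 10 CPM in the higher group. The members and lists were chosen with earlier results of these data known. Itgam, present in 2 rows, was left out of the myeloid markers. Sequences are from RefSeq, GRCm38.p6. Some genes of the lists are not reported here.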

Additional observations from a re-analysis of the deposited data

Results flagged for a closer look

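The effects of Th17 and of Treg conditions on Hdac9, each against Th0 cells, differed in direction. The test of the difference itself, Th17 against Treg cells, gave a log2 difference of 2.72 (SE 0.23, adjusted p = 6.21e-05, edgeR), with both Th17 libraries above and both Treg libraries below the Th0 libraries. The summed B cell markers were 626 and 691 CPM in Th17 against 191 and 184 CPM in Treg libraries, and their part in the difference was not tested.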

How the results depend on the processing

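The number of called members stayed within 1.5 times its value under both scalings, DESeq2, limma-voom, both filters and fits of only the groups compared, in all 6 comparisons. Leaving out 1 library, where the lone library left is assumed to vary like the other groups, gave 2 to 3 members in Th17 against Th0, 6 to 8 in Treg against Th0, 3 to 6 in Th17 against Treg (3 without Treg replicate 2), 7 to 8 in Th17 against naive, 5 to 8 in Treg against naive and 7 to 9 in Th0 against naive cells. Over all genes it gave 2630 to 4190 calls in Th17 against Th0 (4211 with all libraries, 2630 without Th17 replicate 2, 2798 without Th0 replicate 3), 1878 to 4338 in Th17 against Treg (4294 with all libraries, 1878 without Treg replicate 2, 2444 without Th17 replicate 3), 4637 to 7081 in Treg against Th0, 7673 to 9499 in Th17 against naive, 6597 to 8774 in Treg against naive and 8585 to 10375 in Th0 against naive cells.

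Only values that were not called changed sign. Hdac2 in Th17 against Treg cells was -0.02 and became 0.00 under RLE scaling and DESeq2, 0.01 with no filter, with only those groups and without either Th0 library, 0.03 without Th17 replicate 3 and 0.09 without Treg replicate 2. Leaving out 1 library moved it between -0.13 and 0.09. Likewise Hdac1 in Th17 against naive cells ran between -0.15 and 0.07, and Hdac10 in Th17 against Treg cells between -0.06 and 0.21. In Th17 against Th0 cells Hdac3 ran between -0.11 and 0.20 (-0.07 without Th17 replicate 3), Hdac4 between -0.11 and 0.20 (-0.05 without Th0 replicate 1) and Hdac7 between -0.26 and 0.14. The cause was not tested.

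Summing Hdac1 with Gm10093, chosen after the data were seen, gave 10 called members in Th0 against naive, 7 in Treg against naive and 6 in Th17 against Treg cells. Over all genes, this setting called 9942, 8312 and 4294 genes in the same order of comparisons. Only Th17 and Treg share both of their replicate numbers, 2 and 3. Same-numbered libraries deviated together with r = 0.103, and the replicate block gave 5 called members and 4165 called genes. Scaling moved the median of all genes by at most 0.06 on the log2 scale. No filter moved it by up to -0.11 against naive cells. With 2 libraries a group, differences under about the confidence intervals given could not be resolved.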
